A study of Homo sapiens with 60 samples.

Results

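The 10 genes described here carry glucose into the cell and break it down to lactate: the glucose transporters SLC2A1 and SLC2A3, the hexokinases HK1 and HK2, the platelet form of phosphofructokinase PFKP, the regulatory enzyme PFKFB3, and the later enzymes PGK1, ENO1, PKM, and LDHA. They were chosen by name from the gene table, and all 10 were found among its 62703 genes and passed the filter on low counts, together with 12341 genes in all. The cells were 1321N1, an astrocytoma-derived human line used as an astrocyte model. They were left non-treated or exposed to 2.55 µM sodium metaarsenite (arsenic), 2.3 µM cadmium chloride, or 20 µM mercury chloride for 1.5, 3, 6, 12, or 24 h, at doses the study chose for partial loss of viability under longer exposure. Each of the 20 groups held 3 libraries, 60 in all, made from total RNA with a kit that reads the 3′ end of polyadenylated RNA. All groups shared 1 line and 1 medium, and no genetic change separated them.

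Glucose enters cells through facilitative carriers of the SLC2A family and is trapped by phosphorylation by a hexokinase. Phosphofructokinase then commits it to glycolysis, and PFKFB3 makes fructose 2,6-bisphosphate, the strongest known activator of that step. PGK1 and PKM yield ATP, ENO1 makes phosphoenolpyruvate, and LDHA turns pyruvate into lactate while restoring NAD+. Several steps have a form that most cells keep on, such as SLC2A1 and HK1, beside a form that many cells induce under stress or low oxygen, such as SLC2A3 and HK2. Astrocytes are known for high glycolysis and for releasing lactate.

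The counted reads came to a median of 3291417 per library (range 2215276 to 4404609). Levels are given as CPM, the counts scaled for depth relative to the TMM-normalized library size, and changes as log2 fold change (LFC) with its standard error (SE). A gene was taken as higher or lower at an adjusted p under 0.05 in edgeR's quasi-likelihood test, with Benjamini-Hochberg adjustment over the 12341 genes. The labels describe the triplicates as technical, so the p values measure the spread between these libraries and may not cover the spread between independent cultures. The 3 metals share the non-treated libraries of each time point. In bulk RNA, a lower count from fewer expressing cells and one from less RNA per cell cannot be told apart, and differences in CPM are relative to the rest of the transcriptome. Of 12 astrocyte markers, VIM, CD44, SOX9, GJA1, GLUL, and NES passed the filter, whereas AQP4 and ALDH1L1 were at 0 in every library and GFAP reached at most 3 counts. None of the 6 oligodendrocyte, 6 microglia and immune, or 4 endothelial markers passed the filter, and of 6 neuron markers SYT1 and NEFL did.

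The DNA in front of 4 of these genes is shown because each of them changed and each holds the 5 bases ACGTG, the core bound by hypoxia-inducible factors, on one strand or the other. Each line gives the 250 bases before a RefSeq transcript start (build GRCh38.p14, + strand), in lower case with ACGTG or its complement CACGT in capitals. The window of HK2 ends at the base before the annotated gene (chr2:74833877-74834126), and that of LDHA ends at its first bases (chr11:18394313-18394562). The windows of PFKFB3 (chr10:6202682-6202931) and PGK1 (chrX:78103998-78104247) lie inside the annotated genes, before internal transcript starts.
HK2: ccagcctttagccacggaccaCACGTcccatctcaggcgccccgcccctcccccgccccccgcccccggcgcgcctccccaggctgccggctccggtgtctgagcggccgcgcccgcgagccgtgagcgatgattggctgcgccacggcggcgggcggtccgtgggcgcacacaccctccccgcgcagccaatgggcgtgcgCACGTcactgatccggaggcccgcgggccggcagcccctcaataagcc
PFKFB3: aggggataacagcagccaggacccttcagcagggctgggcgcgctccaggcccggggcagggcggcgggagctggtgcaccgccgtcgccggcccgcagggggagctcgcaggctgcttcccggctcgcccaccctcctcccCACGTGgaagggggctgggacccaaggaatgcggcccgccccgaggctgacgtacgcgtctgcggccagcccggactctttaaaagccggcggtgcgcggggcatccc
PGK1: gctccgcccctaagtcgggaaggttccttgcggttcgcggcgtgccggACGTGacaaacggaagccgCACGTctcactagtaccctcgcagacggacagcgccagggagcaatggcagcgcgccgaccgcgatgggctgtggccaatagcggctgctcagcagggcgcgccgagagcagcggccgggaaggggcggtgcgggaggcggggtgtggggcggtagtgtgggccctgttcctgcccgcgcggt
LDHA: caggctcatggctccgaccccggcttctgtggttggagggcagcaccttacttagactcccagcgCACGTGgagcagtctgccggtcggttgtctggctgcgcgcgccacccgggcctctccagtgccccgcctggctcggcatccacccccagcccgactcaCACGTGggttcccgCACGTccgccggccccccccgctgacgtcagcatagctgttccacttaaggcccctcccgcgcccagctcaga
In the LDHA window, matches lay at -185, -184, -87, -86, and -73 from the transcript start, where neighbouring positions are the 2 strands of the palindrome CACGTG. HK2 had matches at -229 and -48 in the window shown, PGK1 at -202 and -183, and PFKFB3 at -108 and -107.

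RefSeq windows were found for 9 of the 10 genes, and the promoter of SLC2A3 was not analysed here. ACGTG occurred in at least one window of HK2, PFKP, PFKFB3, PGK1, and LDHA, compared with 18.5% of all 35116 windows of the same length. The other windows of PFKFB3 and LDHA held no match. The windows with a match had 69.6% to 81.6% G and C, against a median of 58.0% over all windows. ACGTG itself contains CG, so the share over all windows is not a like-for-like background, and no enrichment was tested. The E-box CACGTG, which contains ACGTG, occurred for HK2, PFKFB3, and LDHA (6.34% of all windows). TGACNNNGC, the core of the antioxidant response element, occurred for HK1 and PKM (10.9%). GAANNTTC, part of the heat shock element, occurred for PGK1 (5.78%). Of the 2 forms of the metal response element core, TGCACNC occurred in no window of these genes (9.87%) and TGCGCNC in windows of HK1, HK2, PFKP, LDHA, and PKM (16.8%). Both strands were searched for each motif. Genes with several starts have several windows, so their chance of holding a match is higher than that of a single window. Of the 5 genes with ACGTG, 3 rose in some comparison, LDHA fell, and PFKP passed no test against non-treated cells. A match is a description of the letters and not evidence of binding.

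Over the 15 comparisons with non-treated cells, 20 of the 150 tests of these genes passed, 18 upward and 2 downward. Mercury accounted for 12 of the upward calls, cadmium for 5, and arsenic for 1. Over all 12341 genes tested, mercury also had the most upward calls. At 12 h these were 1097 with mercury, 640 with cadmium, and 292 with arsenic, and at 24 h 1712, 192, and 807. The larger number with mercury was thus not particular to these genes. SLC2A3, HK2, PFKFB3, and PGK1 rose, LDHA fell, and SLC2A1, HK1, PFKP, ENO1, and PKM passed the test in none of the 15 comparisons.

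The neuronal-type glucose transporter SLC2A3, also known as GLUT3 (chr12:7919230-7936187, - strand), rose with mercury from 3 h on. In non-treated cells at 24 h, its level was 23.95, 23.98, and 25.1 CPM in the 3 libraries. With mercury at the same time it was 74.27, 69.73, and 66.41 CPM, so that the lowest mercury library lay far above the highest non-treated one. The LFC was 1.53 (SE 0.167, adjusted p = 2.35e-11), a 2.88-fold difference. At 3 h the mercury libraries held 38.54, 55.03, and 42.06 CPM against 22.95, 23.35, and 28.38 CPM, an LFC of 0.87 (SE 0.171, adjusted p = 0.000599). The LFC was 1.14 at 6 h (SE 0.183, adjusted p = 4.04e-06) and 0.97 at 12 h (SE 0.170, adjusted p = 1.21e-05). At 1.5 h the mercury libraries held 41.72, 53.32, and 50.48 CPM and the non-treated ones 28.03, 36.61, and 29.85 CPM. These did not overlap either, but the LFC of 0.62 missed the threshold (SE 0.168, adjusted p = 0.0635).

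The SLC2A3 time course depended on both arms. Under mercury, its mean went from 48.5 CPM at 1.5 h through 45.2 to 40.6 at 6 h, and then to 50.4 and 70.1 CPM at 12 and 24 h. In non-treated cells it went from 31.5 CPM at 1.5 h through 24.9 to 18.4 at 6 h, and was 25.6 at 12 h and 24.3 at 24 h. The lower level at 6 h than at 1.5 h was itself significant in non-treated cells (LFC -0.77, SE 0.190, adjusted p = 0.0321), a call lost when any of the 6 libraries was left out. The larger LFC at 6 h than at 3 h therefore stood beside a lower, not a higher, mean under mercury.

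With cadmium, SLC2A3 passed the test at 12 h, with 34.93, 37.01, and 38.98 CPM against 30.48, 22.54, and 23.83 CPM (LFC 0.53, SE 0.175, adjusted p = 0.046). This call was close to the threshold and was lost when any of 5 of the 6 libraries was left out, namely each cadmium library or non-treated replicate 2 or 3, with adjusted p up to 0.162. With arsenic, the LFC lay between -0.45 at 3 h and 0.59 at 6 h and passed at no time point. At 24 h the LFC was 0.38 for arsenic (adjusted p = 0.156) and 0.41 for cadmium (adjusted p = 0.278). Direct comparisons set mercury above the other metals at most times. SLC2A3 was lower with arsenic than with mercury at all 5 time points, with LFCs of -0.85, -1.32, -0.55, -0.81, and -1.15 in order of time. It was lower with cadmium than with mercury at 4 of them, from -0.57 at 6 h to -1.12 at 24 h. The 2 calls at 6 h (adjusted p = 0.0437 and 0.0474) were lost without most single libraries.

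SLC2A1, or GLUT1, the transporter of the blood-brain barrier and most dividing cells (chr1:42925353-42958893, - strand), passed no test against non-treated cells. Its level at 24 h was 45.84, 46.42, and 40.97 CPM in non-treated cells and 49.73, 44.32, and 53.53 CPM with mercury. These ranges overlapped, and the LFC was 0.15 with a 95% interval from -0.14 to 0.43. Over all 15 comparisons, the LFC lay between -0.18 and 0.36, with a lowest adjusted p of 0.257. The interval at 24 h of mercury for SLC2A3, from 1.19 to 1.86, lay wholly above that for SLC2A1.

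HK2, the hexokinase that many tumour cells and insulin-responsive tissues induce (chr2:74834127-74893359, + strand), rose with cadmium and mercury at 6 and 12 h and with mercury at 24 h. At 12 h, the cadmium libraries held 44.01, 47.4, and 42.49 CPM and the non-treated ones 22.09, 25.32, and 22 CPM. The LFC of 0.95 (SE 0.193, adjusted p = 0.000357) was a 1.93-fold difference, and the groups lay well apart. At 24 h with mercury, the levels were 39.03, 36.26, and 34.36 CPM against 20.35, 12.91, and 21.35 CPM (LFC 0.998, SE 0.198, adjusted p = 6.05e-05). With mercury at 12 h they were spread from 28.5 to 51.56 CPM, with an LFC of 0.73 (SE 0.195, adjusted p = 0.00483) that became 0.50 (adjusted p = 0.114) without replicate 1.

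At 6 h, HK2 reached an LFC of 1.01 with mercury (SE 0.207, adjusted p = 0.000339) and 0.89 with cadmium (SE 0.212, adjusted p = 0.00731). The non-treated libraries at that time held 12.65, 24.49, and 12.52 CPM, so that replicate 2 stood at about the level of the earlier time points and the other two libraries well under it. The mean in non-treated cells was 27.3 CPM at 1.5 h and 16.6 CPM at 6 h (LFC -0.72, adjusted p = 0.118). That difference passed in DESeq2 (adjusted p = 0.0462) and without 6 h replicate 2 (adjusted p = 0.0103). Under mercury the mean was 34.1 and 33.3 CPM at the same times, and under cadmium 30.7 and 30.8 CPM. The levels under both metals at 6 h were thus near those at 1.5 h, while that of non-treated cells was lower. The cadmium call at 6 h was lost without cadmium replicate 1 or 2 or non-treated replicate 1 or 3, with adjusted p up to 0.13.

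By 24 h, HK2 under cadmium was spread over 25.91, 26.91, and 12.93 CPM and overlapped with non-treated cells (LFC 0.29, adjusted p = 0.62). It was lower than with mercury (LFC -0.71, SE 0.194, adjusted p = 0.00512), a call that went without cadmium replicate 3 (LFC -0.47, adjusted p = 0.105). With arsenic HK2 passed at no time point, with an LFC from -0.22 at 1.5 h to 0.48 at 6 h. It was lower with arsenic than with cadmium at 12 h (LFC -0.70, SE 0.189, adjusted p = 0.0134) and than with mercury at 24 h (LFC -0.61, SE 0.194, adjusted p = 0.0278). The first call went without arsenic replicate 1 or 3 or cadmium replicate 2 (adjusted p up to 0.074), and the second without any library but mercury replicate 3 (adjusted p up to 0.0991).

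HK1, the hexokinase that most tissues and the brain express throughout (chr10:69269984-69401884, + strand), kept group means between 163 and 232 CPM. Its LFC against non-treated cells lay between -0.06 and 0.23, with a lowest adjusted p of 0.111. At 24 h of mercury, it was 178.1, 212.3, and 200.6 CPM against 195.7, 218, and 182.1 CPM, an LFC of -0.01 with a 95% interval from -0.19 to 0.17. The interval for HK2 in the same comparison ran from 0.60 to 1.39. Between metals, HK1 was higher with cadmium than with mercury at 24 h by an LFC of 0.24 (SE 0.089, adjusted p = 0.0486), a call lost under 8 of 12 alternatives.

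PFKFB3 (chr10:6144934-6254644, + strand) rose with cadmium at 6 and 12 h and with mercury at 12 and 24 h. At 6 h of cadmium, it was 88.51, 94.44, and 94.59 CPM against 51.83, 67.99, and 58.75 CPM, an LFC of 0.63 (SE 0.137, adjusted p = 0.00244). At 24 h of mercury, it was 93.47, 94.83, and 96.81 CPM against 61.55, 54.41, and 68.38 CPM, an LFC of 0.63 (SE 0.133, adjusted p = 0.000164). In both cases every treated library lay above every non-treated one. The LFC at 12 h was 0.49 with cadmium (SE 0.136, adjusted p = 0.013) and 0.60 with mercury (SE 0.134, adjusted p = 0.00065). The cadmium call at 12 h was lost without cadmium replicate 2 or non-treated replicate 1 or 2, with adjusted p up to 0.102.

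As with HK2, the level of PFKFB3 in non-treated cells was not steady. Its mean was 80.3 CPM at 1.5 h and 79.9 CPM at 3 h, and 59.5, 59.9, and 61.4 CPM at 6, 12, and 24 h. None of these differences from 1.5 h passed edgeR's test (LFC -0.42 and adjusted p = 0.0623 at 12 h). The 12 h difference did pass in DESeq2 (adjusted p = 0.036) and with a stricter filter on low counts (adjusted p = 0.042). The 1.5 h libraries ranged from 61.02 to 92.33 CPM, and without 1.5 h replicate 2 the levels at 6 h (adjusted p = 0.0481), 12 h (adjusted p = 0.0149), and 24 h (adjusted p = 0.0244) were lower than at 1.5 h, as was the 24 h level without 24 h replicate 3 (adjusted p = 0.048). The mean of 95.04 CPM under mercury at 24 h was 118% of the 1.5 h mean of non-treated cells. With arsenic, the mean of PFKFB3 was 71.9 CPM at 1.5 h and 56.4 CPM at 24 h, and the LFC lay between -0.16 and 0.10 at all 5 time points. At 24 h it was lower with arsenic than with mercury (LFC -0.76, SE 0.135, adjusted p = 3.05e-05), and cadmium was also under mercury (LFC -0.50, SE 0.132, adjusted p = 0.00401). At 6 h it was lower with arsenic than with cadmium (LFC -0.61, SE 0.134, adjusted p = 0.00454), though not without arsenic replicate 3 (adjusted p = 0.0684).

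**Figure D1:**
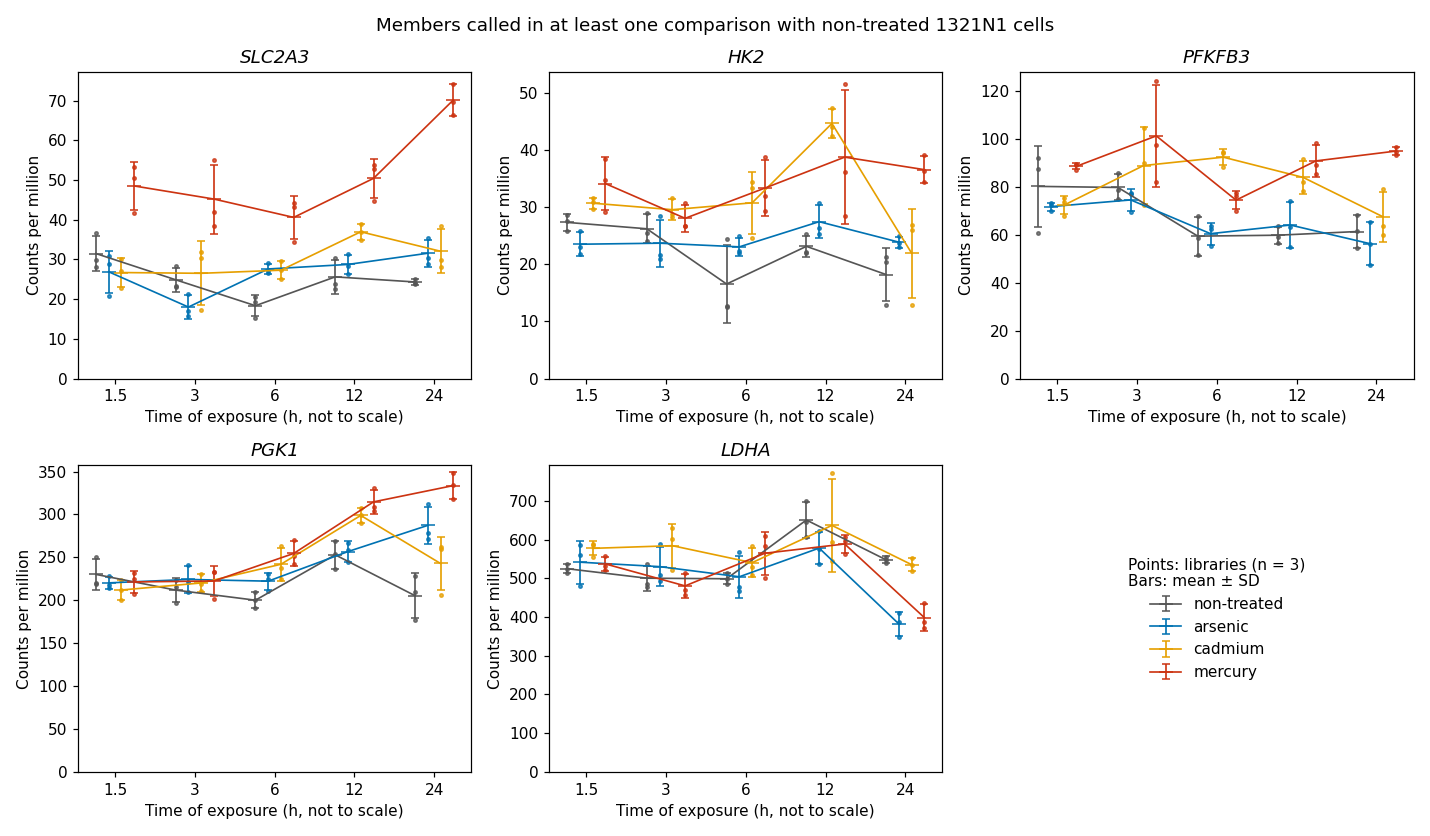
Level (CPM, linear axis from 0) of SLC2A3, HK2, PFKFB3, PGK1, and LDHA over the 5 exposure times, with small points for the 3 libraries of a group and bars for mean ± SD. The mean of SLC2A3 under mercury stands above that of all other treatments at every time and reaches a mean of 70.1 CPM at 24 h, and LDHA under arsenic and mercury falls under 440 CPM at 24 h.

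PFKP, a subunit of the phosphofructokinase that PFKFB3's product activates (chr10:3066333-3137718, + strand), passed no test against non-treated cells. Its level ranged from 107 to 170 CPM over the 60 libraries. The LFC lay between -0.18 with arsenic at 24 h and 0.25 with mercury, with a lowest adjusted p of 0.148. At 24 h the mercury libraries held 122.7, 123.7, and 159.6 CPM and the non-treated ones 129, 146, and 112.5 CPM, which overlapped.

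PGK1 (chrX:77910739-78129295, + strand), the first ATP-yielding enzyme of the pathway, rose with mercury from 6 h and with arsenic at 24 h. At 24 h it was 210.2, 177.4, and 228.8 CPM in non-treated cells. It was 334.9, 348.3, and 317.9 CPM with mercury, an LFC of 0.70 (SE 0.089, adjusted p = 2.34e-09) or 1.62-fold. With arsenic it was 271.9, 311.7, and 278.3 CPM, an LFC of 0.48 (SE 0.089, adjusted p = 3.49e-05) or 1.40-fold. Both metals lay above all non-treated libraries at 24 h. The LFC with mercury was 0.35 at 6 h (SE 0.090, adjusted p = 0.00692) and 0.32 at 12 h (SE 0.088, adjusted p = 0.00761). The latter call went without mercury replicate 3 or non-treated replicate 3, with adjusted p up to 0.0593.

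With cadmium, PGK1 reached an LFC of 0.27 at 6 h, 0.24 at 12 h, and 0.24 at 24 h, with adjusted p of 0.107, 0.0802, and 0.167. At 12 h the cadmium libraries held 307.6, 289.9, and 299.2 CPM, all above the non-treated range of 236.5 to 269 CPM. At 24 h they held 260, 262, and 206.6 CPM, and without replicate 3 the LFC was 0.35 (adjusted p = 0.0269). The arsenic effect on PGK1 grew late: the LFC was 0.02 at 12 h and 0.48 at 24 h, and the difference between these values passed the test (0.46, SE 0.125, adjusted p = 0.0377), a call kept in 9 of 18 alternatives. Part of the difference lay in the non-treated level, which was 253 CPM at 12 h and 205 CPM at 24 h, while that under arsenic was 257 and 287 CPM. PGK1 was lower with cadmium than with mercury at 24 h (LFC -0.46, SE 0.088, adjusted p = 6.71e-05) and lower with arsenic than with mercury at 12 h (LFC -0.29, SE 0.088, adjusted p = 0.028), the latter lost without arsenic replicate 1 or 2 or mercury replicate 2 or 3 (adjusted p up to 0.165).

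ENO1 (chr1:8861000-8879190, - strand), the enolase of most tissues, varied between 1950 and 3590 CPM over all libraries. Several groups were uneven: with arsenic at 1.5 h the libraries held 3038, 3367, and 2189 CPM, and with mercury at 6 h 3231, 3387, and 2282 CPM. Against non-treated cells its LFC lay between -0.16 and 0.48, and the largest value, with arsenic at 1.5 h, missed the threshold (SE 0.121, adjusted p = 0.0891). It was called there by DESeq2 (adjusted p = 0.0374), without a filter on low counts (adjusted p = 2.43e-06), and without arsenic replicate 3 (LFC 0.64, adjusted p = 0.00229). In non-treated cells, ENO1 rose from 2049, 2031, and 2078 CPM at 1.5 h to a mean of 2970 CPM at 12 h (LFC 0.53, SE 0.121, adjusted p = 0.00406), a call that went without non-treated 12 h replicate 1 (LFC 0.42, adjusted p = 0.088). It was also higher with arsenic than with mercury at 1.5 h (LFC 0.43, adjusted p = 0.046), although those groups overlapped and 7 of 12 alternatives lost the call.

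PKM, the pyruvate kinase of muscle and most proliferating cells (chr15:72199029-72231819, - strand), lay between 627 and 973 CPM in all libraries. Its LFC was between -0.23 with arsenic at 6 h and 0.18, with a lowest adjusted p of 0.267. The gene-level counts do not separate its M1 and M2 splice forms.

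LDHA (chr11:18394560-18408425, + strand) was the only one of the 10 genes to fall against non-treated cells in any of the 15 comparisons. At 24 h it was 556.1, 538.6, and 548.5 CPM in non-treated cells, 409.8, 386.9, and 349.3 CPM with arsenic, and 387.1, 370.6, and 437.1 CPM with mercury. The LFC was -0.52 with arsenic (SE 0.094, adjusted p = 2.66e-05) and -0.46 with mercury (SE 0.094, adjusted p = 9.51e-05), about 0.697 and 0.727 of the non-treated level. Every arsenic and mercury library lay under every non-treated one. With cadmium it was 518.4, 552.9, and 534.3 CPM, an LFC of -0.03 with a 95% interval from -0.22 to 0.15. LDHA was lower with arsenic than with cadmium (LFC -0.49, SE 0.094, adjusted p = 0.000116) and higher with cadmium than with mercury (LFC 0.43, SE 0.094, adjusted p = 0.000476). At 12 h the LFC was -0.17 with arsenic (adjusted p = 0.389) and -0.15 with mercury (adjusted p = 0.323), and the non-treated level was itself higher than at 1.5 h (LFC 0.31, SE 0.093, adjusted p = 0.0411), a call lost without any of 5 of the 6 libraries (all but non-treated 12 h replicate 2). The change at 24 h differed from that at 12 h by -0.35 with arsenic (SE 0.132, adjusted p = 0.178) and -0.32 with mercury (SE 0.132, adjusted p = 0.351), which did not pass.

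**Figure D2:**
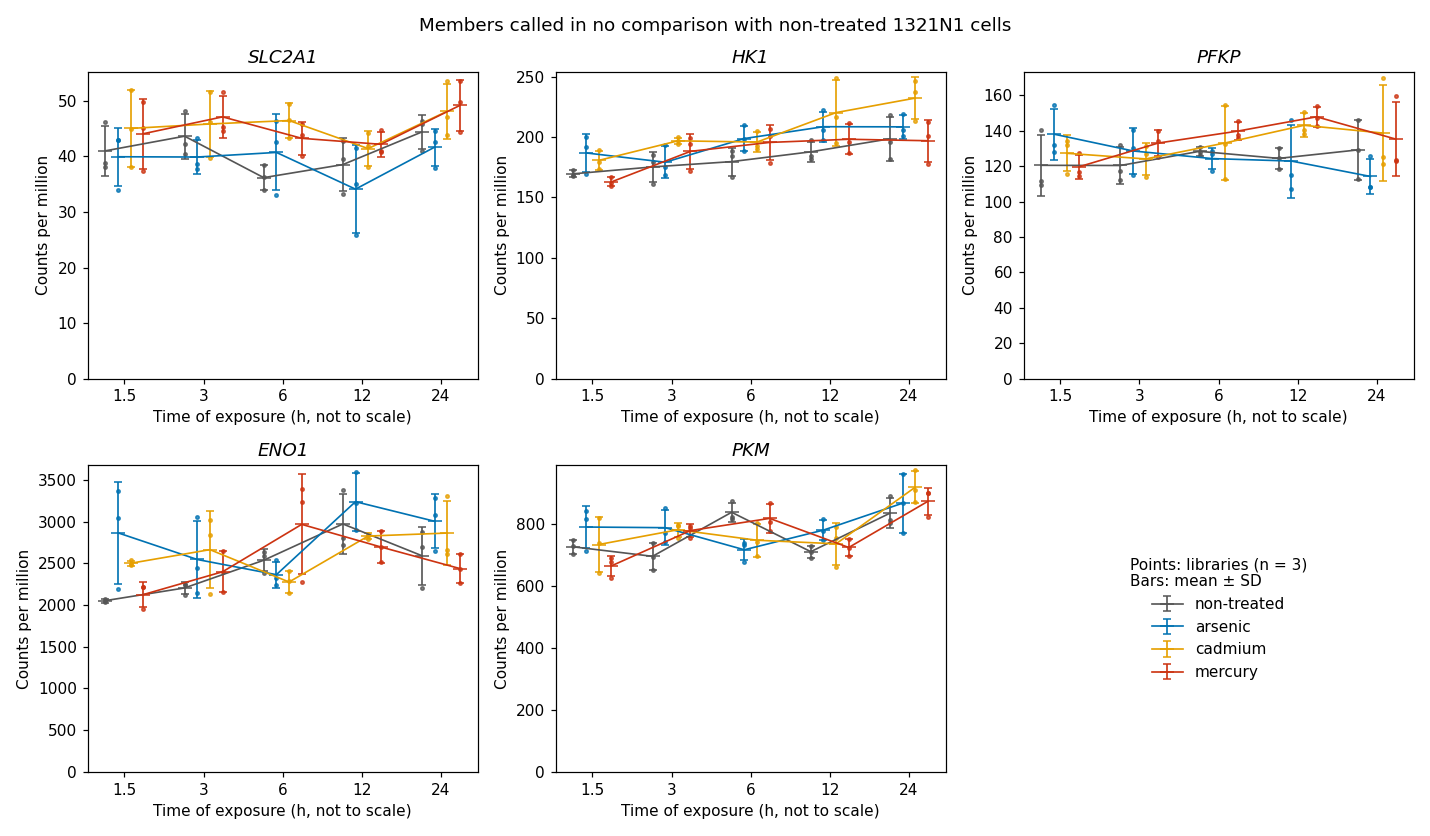
Level (CPM, linear axis from 0) of SLC2A1, HK1, PFKP, ENO1, and PKM over the 5 exposure times, with small points for the 3 libraries of a group and bars for mean ± SD. None of the 5 passed the test against non-treated cells at any time, and ENO1 shows the uneven libraries with arsenic at 1.5 h (2189 to 3367 CPM).

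The counts of calls were set beside the share of all genes tested that were called. With mercury, 1 of 10 rose at 3 h (1.39% of all genes tested rose) and 3 at 6 h (4.49%). At 12 h, 4 rose (8.89%), and at 24 h 4 rose (13.9%) and 1 fell (13.9%). With an LFC above 1 as a further demand, 2 remained at 6 h, SLC2A3 and HK2 (1.1% of all genes), and SLC2A3 alone at 24 h (4.85%). With cadmium, 2 rose at 6 h (1.6%), 3 at 12 h (5.19%), and none rose or fell at 24 h (1.56% and 0.632%). With arsenic, 1 rose (6.54%) and 1 fell (7.75%) at 24 h; 1 of 10 is near those shares. The median LFC of the 10 genes was 0.11 at 24 h of mercury, 0.06 of arsenic, and 0.14 of cadmium, against medians of -0.02, 0.00, and -0.01 over all genes tested.

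No member passed edgeR's test in the remaining comparisons with non-treated cells. These were arsenic at 1.5 h (0.0729% of all genes called), 3 h (0.138%), 6 h (0.916%), and 12 h (4.11%), cadmium at 1.5 h (0%) and 3 h (0.203%), and mercury at 1.5 h (0.567%). In these, between 0 and 3 of the 10 genes had an unadjusted p under 0.05, and 991 of the 12341 genes did with cadmium at 1.5 h. DESeq2 called ENO1 with arsenic at 1.5 h, SLC2A3 with mercury at 1.5 h, and 0 of the 10 genes in the others and with cadmium at 24 h, where 3 had an unadjusted p under 0.05.

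**Figure D3:**
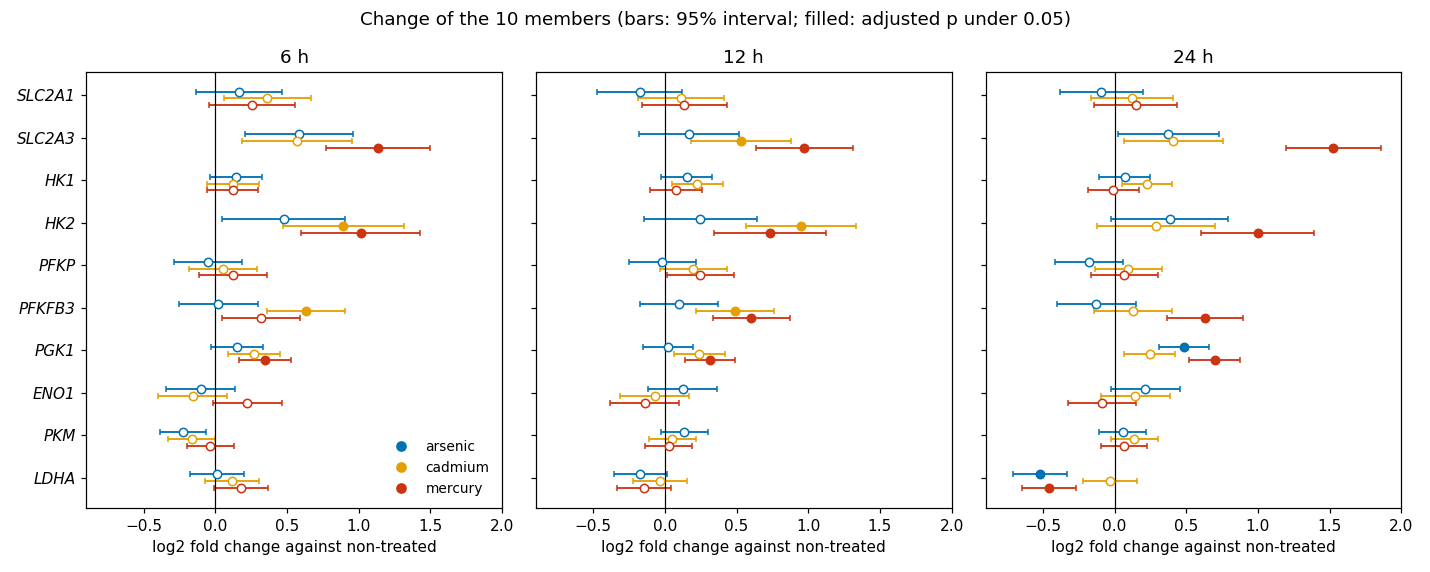
LFC against non-treated cells of the same time (x axis, log2) of the 10 genes at 6, 12, and 24 h, with 95% intervals and filled points for adjusted p under 0.05. SLC2A3 and HK2 lie right of 0 with mercury in all 3 panels, and LDHA has filled points left of 0 with arsenic and mercury at 24 h.

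The comparisons between metals called 22 times among these genes, mostly in pairs that included mercury. Such pairs were also the majority of the comparisons. The shares of all genes called were higher in them than for arsenic against cadmium at 1.5, 3, 6, and 24 h. Arsenic and cadmium differed in none of the 10 genes at 1.5 h (0% of all genes called) or 3 h (0.138%). They differed in PFKFB3 at 6 h (1.18%), HK2 at 12 h (5.77%), and LDHA at 24 h (10.2%), all lower with arsenic. Arsenic and mercury differed in 2 genes at 1.5 h (1.56%) and in SLC2A3 at 3 h (1.89%) and 6 h (4.48%). They differed in 3 genes each at 12 h (6.84%) and 24 h (11.4%). Cadmium and mercury differed in SLC2A3 at 1.5 h (0.656%), 3 h (1.78%), and 6 h (3.78%), in none at 12 h (3.29%), and in 6 genes at 24 h (20%). At 24 h SLC2A3, HK2, PFKFB3, and PGK1 were lower and HK1 and LDHA higher with cadmium than with mercury. In the 3 comparisons without a call, DESeq2 called 0 of the 10 genes as well, and at most 1 had an unadjusted p under 0.05.

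Non-treated cells changed over the same hours. Against 1.5 h, none of the 10 genes passed at 3 h (0.122% of all genes), SLC2A3 was lower at 6 h (0.486%), ENO1 and LDHA were higher at 12 h (4.09%), and none passed at 24 h (3.29%). At 24 h, 6 of the 10 genes had an unadjusted p under 0.05 and DESeq2 called 0, and at 3 h both counts were 0. The test of the change at 24 h against that at 12 h called PGK1 for arsenic (1.57% of all genes) and none of the 10 genes for cadmium (0.381%) or mercury (0.624%), where 1 and 3 had an unadjusted p under 0.05 and DESeq2 called 0.

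Among the other enzymes of the pathway, HKDC1, a further member of the hexokinase family, stood out. Its mean at 24 h was 25.5 ± 7.9 CPM (SD, n = 3) in non-treated cells, 157 ± 2.83 CPM with mercury, 87.1 ± 2.79 CPM with arsenic, and 42.9 ± 4.55 CPM with cadmium. The LFC was 2.61 with mercury (SE 0.185, adjusted p = 6.38e-19), 1.76 with arsenic (SE 0.187, adjusted p = 2.03e-11), and 0.73 with cadmium (SE 0.194, adjusted p = 0.0235). It was already higher with mercury at 6 h (adjusted p = 1.39e-06) and with all 3 metals at 12 h (LFC 2.22 with mercury, 1.19 with cadmium, and 1.07 with arsenic). Of 24 other glycolytic enzymes, 12 were tested, and at 24 h 2 rose with each metal: HKDC1 and GPI with arsenic and cadmium, and HKDC1 and BPGM with mercury. BPGM, which diverts an intermediate to 2,3-bisphosphoglycerate, had an LFC of 0.80 with mercury (SE 0.241, adjusted p = 0.00843). The liver phosphofructokinase PFKL fell with mercury (LFC -0.73, SE 0.220, adjusted p = 0.00894) and was the only one of the 12 to fall at 24 h with any metal. Over all genes at 24 h, 13.9% were higher and 13.9% lower with mercury, 6.54% and 7.75% with arsenic, and 1.56% and 0.632% with cadmium, the shares to set beside the counts of the lists at that time.

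Of 16 other carriers of the SLC2A and SLC5A families, 6 were tested. The lysosomal-type carrier SLC2A6 fell with mercury at 24 h (LFC -1.23, SE 0.233, adjusted p = 2.74e-05), as did the intracellular carrier SLC2A8 (LFC -0.58, SE 0.205, adjusted p = 0.0276). SLC5A3, which carries myo-inositol, was lower at 24 h with arsenic (LFC -0.73, adjusted p = 0.00474) and cadmium (LFC -0.67, adjusted p = 0.036). Its mean in non-treated cells was 27 ± 4.92 CPM at 12 h and 35.8 ± 9.51 CPM at 24 h. At the same times it was 23.3 and 21.6 CPM with arsenic and 21.3 and 22.3 CPM with cadmium. SLC2A10 was the one carrier of the 6 to rise at any time, with arsenic and mercury at 24 h. Its LFC was 3.03 with arsenic (SE 0.813, adjusted p = 0.00585) and 2.38 with mercury (SE 0.861, adjusted p = 0.0304). Its mean over the 60 libraries was under 20 counts, so these large values rest on few reads. SLC2A3 thus rose with mercury at 24 h while 2 other carriers of its family fell. Of 16 regulators of glycolytic flux, 9 were tested. PDP1, a phosphatase that activates pyruvate dehydrogenase, was lower with arsenic at 24 h (LFC -0.69, SE 0.232, adjusted p = 0.0325). None of the 9 passed with cadmium or mercury at that time. The PDP1 mean in non-treated cells was 21.3 ± 4.75 CPM at 12 h and 27.1 ± 10.8 CPM at 24 h. Under arsenic it was 18.3 and 16.8 CPM at these times. TXNIP, which restrains glucose uptake, was lower at earlier times. Its LFC with mercury was -0.68 at 1.5 h (adjusted p = 0.0154), -2.31 at 3 h (SE 0.177, adjusted p = 1.42e-16), and -1.64 at 6 h (SE 0.168, adjusted p = 7.75e-12). It was also lower with arsenic at 3 h (LFC -0.73, adjusted p = 0.0157) and with cadmium at 6 h (LFC -0.90, adjusted p = 0.000103), and it passed with no metal at 12 or 24 h. PDK1, a kinase that inhibits pyruvate dehydrogenase, was higher with mercury at 6 h (LFC 0.85, adjusted p = 0.0329), and MLXIP, a glucose-responsive transcription factor, at 12 h (LFC 0.42, adjusted p = 0.0475).

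Of 13 genes tested that handle pyruvate and lactate, 3 rose and 4 fell with mercury at 24 h, where 13.9% of all genes were called in each direction. With arsenic 2 rose and 2 fell (6.54% and 7.75% of all genes), and with cadmium none passed. SLC16A3, or MCT4, which exports lactate, fell with mercury (LFC -0.92, SE 0.140, adjusted p = 3.14e-07) and arsenic (LFC -0.45, SE 0.137, adjusted p = 0.0168) at 24 h, as LDHA did. At 1.5 h SLC16A3 was instead higher with arsenic (LFC 0.70, SE 0.139, adjusted p = 0.0222). Its mean in non-treated cells was 138 CPM at 1.5 h and 211 CPM at 24 h. At the same times it was 225 and 155 CPM with arsenic and 148 and 112 CPM with mercury. PDHA1, a subunit of pyruvate dehydrogenase, fell with mercury and arsenic at 24 h as well (LFC -0.50 and -0.41, adjusted p = 0.00024 and 0.00502). PCK2, the mitochondrial enzyme that makes phosphoenolpyruvate, rose with arsenic (LFC 1.71, SE 0.171, adjusted p = 2.96e-12) and mercury (LFC 0.73, SE 0.177, adjusted p = 0.00107).

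In the side branches of hexose metabolism, 18 of 19 genes were tested, and at 24 h 7 rose and 1 fell with mercury (13.9% of all genes each way), 6 rose and 1 fell with arsenic (6.54% and 7.75%), and 3 rose with cadmium (1.56%). GFPT1, which takes fructose 6-phosphate into the hexosamine pathway, rose with mercury (LFC 1.39, SE 0.114, adjusted p = 4.12e-16) and arsenic (LFC 0.999, SE 0.115, adjusted p = 2.53e-10). PGM3 of the same pathway was higher with mercury (LFC 1.01, adjusted p = 6.33e-06) and arsenic (LFC 0.53, adjusted p = 0.0369). Its mean in non-treated cells was 34 CPM at 1.5 h and 23.9 CPM at 24 h, when it was 34.5 CPM with arsenic and 48.3 CPM with mercury. GFPT2 rose with mercury (LFC 1.12, SE 0.202, adjusted p = 1.15e-05) and had an LFC of -0.15 with arsenic (adjusted p = 0.711).

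Of 20 targets of hypoxia-inducible factor 1 outside glycolysis, 18 were tested. With mercury at 24 h, 12 rose and 1 fell (13.9% of all genes each way). The median LFC was 0.63 against -0.02 over all genes. With arsenic 4 rose and 2 fell at 24 h (6.54% and 7.75% of all genes). With cadmium none passed edgeR's test at that time (1.56% and 0.632%), when the median LFC was 0.28. With cadmium at 12 h 3 of the 18 rose (5.19% of all genes), namely VEGFA, the vascular growth factor (LFC 1.35, SE 0.273, adjusted p = 0.000326), BNIP3 (LFC 0.37, adjusted p = 0.00997), and ADM (LFC 0.59, adjusted p = 1.5e-05). ADM was instead called lower with arsenic at 6, 12, and 24 h (LFC -0.56, -0.39, and -0.50) and with mercury at 6 h (LFC -0.32). With mercury it was called higher at 1.5 h (LFC 0.43) and 24 h (LFC 0.83). VEGFA was also higher with cadmium at 6 h (LFC 1.68, SE 0.311, adjusted p = 0.00017). At 24 h VEGFA reached an LFC of 2.68 with mercury (SE 0.260, adjusted p = 3.32e-13) and 2.04 with arsenic (SE 0.265, adjusted p = 9.64e-09). NDRG1 reached 2.30 with mercury (SE 0.395, adjusted p = 4.18e-06). Of 14 transcripts of factors known to regulate these genes, 13 were tested. At 24 h 5 rose with mercury (13.9% of all genes) and 1 with cadmium (1.56%). With arsenic 3 rose and 1 fell at 24 h (6.54% and 7.75%), and 1 of 13 is near the latter share. ATF4, a factor of the integrated stress response, rose with mercury (LFC 1.2, SE 0.130, adjusted p = 1.56e-11) and arsenic (LFC 1.03, SE 0.130, adjusted p = 3.92e-09). EPAS1, which encodes HIF-2α, was higher with all 3 metals (LFC 1.12 with mercury, 0.70 with arsenic, and 0.52 with cadmium). Its mean in non-treated cells was 74.5 CPM at 1.5 h and 53.5 CPM at 24 h. Under cadmium it was 72.6 and 76.3 CPM at these times, and at 24 h it was 116 CPM with mercury and 87.3 CPM with arsenic. NFE2L2, which encodes NRF2, rose with mercury (LFC 0.91, adjusted p = 3.06e-07) and arsenic (LFC 0.42, adjusted p = 0.0317). The HIF1A transcript fell with arsenic at 24 h (LFC -0.36, SE 0.105, adjusted p = 0.0126) and was higher with cadmium at 12 h (LFC 0.48, SE 0.105, adjusted p = 0.000981). The activity of these factors was not measured.

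**Figure D4:**
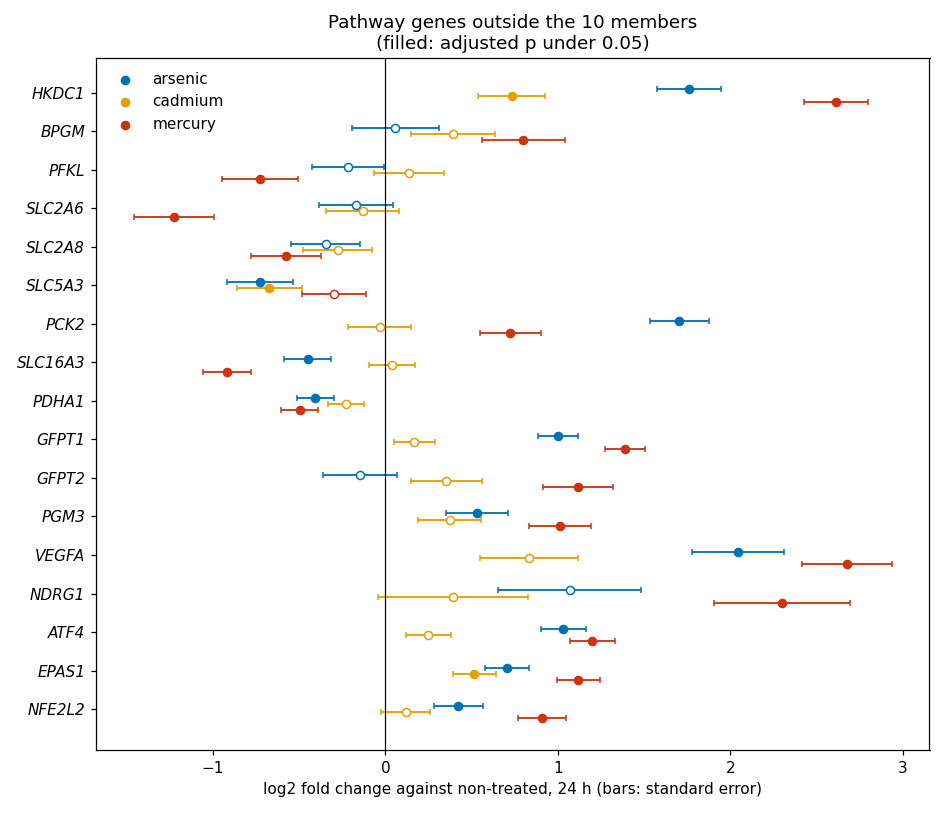
LFC at 24 h against non-treated cells (x axis, log2) of pathway genes outside the 10, with SE bars and filled points for adjusted p under 0.05. HKDC1 lies right of 0 with all 3 metals (2.61, 1.76, and 0.73), and SLC16A3 and PDHA1 lie left of 0 with arsenic and mercury.

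The genes whose pattern over the 20 group means was most like that of each member are given as a description, among the 7253 genes whose mean reached 50 counts. SLC2A3 was most like the stress-induced transcription factors MAFF (Pearson r = 0.904) and ATF3 (0.896) and the chromatin remodeler CHD2 (0.901). HK2 was most like MAPK8 (0.886), NEDD4L (0.873), and CAPN2 (0.861), and PFKFB3 like CREB5 (0.908), FRMD6 (0.865), and RGS3 (0.857). PGK1 was most like SOD1 (0.957), KYNU (0.945), and CTSL (0.944). For LDHA these were RAN (0.925), SNRPG (0.904), and XRCC5 (0.887). ENO1 was most like TPI1 (0.972), an enzyme of the same pathway, and like COX5B (0.954). The likeness was weaker for HK1 (PMP22, 0.856), PKM (APCDD1L, 0.804), PFKP (CAP1, 0.788), and SLC2A1 (TIMP3, 0.753). Between members, SLC2A3 and HK2 had an r of 0.699, HK2 and PFKFB3 of 0.718, and SLC2A3 and PGK1 of 0.677, whereas LDHA and SLC2A3 had an r of -0.254. Group means share libraries, depth, and the non-treated cells' drift, so these values carry no test.

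Few reads were counted on copies named after these genes. The last 400 bases of each transcript, where this assay reads, shared 8.3% of their 50-base stretches with other genes for PGK1, 4.8% for LDHA, 1.7% for PKM, and under 1% for the others. Pseudogenes named after a member had between 0 and 7 counts over all 60 libraries together, against 47810 counts for PGK1 and 105267 for LDHA. Copies under other names were not counted, and reads lost to shared stretches were not measured. For PFKP, 6.6% of the end bases overlapped exons of another gene on the same strand. SLC2A14, a close paralog of SLC2A3, had 39 counts in all, against 6552.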

How the data were processed

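RNA of 1321N1 cells was sequenced from the 3′ end in 60 libraries. The authors aligned single-end reads to GRCh38 with STAR (v2.7.9a), counted them strand-specifically on exons of the GENCODE basic annotation in Union mode, which leaves out reads overlapping more than 1 gene, and deposited whole-number counts per gene without normalization. All 60 columns were matched to samples by the labels. Spike-in rows held 0 counts and were left out. Counts were fitted in edgeR (v4.0.16, R v4.3.3) with TMM, filterByExpr (minimum count 10, minimum total 15), and 1 coefficient per group. The 37 comparisons were 15 with non-treated cells, 15 between metals, 4 over time, and 3 of the change at 24 h against that at 12 h. SE was LFC divided by the root of the F statistic. Alternatives were RLE, DESeq2 (v1.42.0), other filters, a replicate block, only the libraries compared, and each library left out.

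The members and lists were chosen with earlier results of these data known. Named outside the 10 genes were the 3 largest changes at 24 h of each list with a mean of at least 20 counts, and the 3 genes most like each member. Not every gene that this rule names is reported here. GPI, SLC2A10, HIF1A, TXNIP, PDK1, MLXIP, BNIP3, and ADM were added after their values were seen. On simulated counts for mercury at 24 h (12341 genes), 84 of 100 genes changed by an LFC of 1 and 36 of 100 changed by 0.5 were called. No 2 replicates were copies (lowest chi-square per degree of freedom 2.02).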

Additional observations from a re-analysis of the deposited data

Results flagged for a closer look

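One result met the rule for effects that differ between time points. The LFC of PGK1 with arsenic was larger at 24 h than at 12 h by 0.46 (SE 0.125, edgeR's quasi-likelihood test of the interaction, adjusted p = 0.0377). All 3 arsenic libraries lay above all 3 non-treated ones at 24 h, whereas the groups overlapped at 12 h. The call was lost in 9 of 18 alternatives, with a range of 0.37 to 0.56 and adjusted p from 0.0092 to 0.183. Groups of 3 libraries are too small for a test of single libraries that stand apart.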

How the results depend on the processing

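Of the 46 called gene values, 25 kept their call under every alternative run. Over all 558 alternatives of these values, the call was kept in 471 and lost in 87, and the direction reversed in 0. The rise of SLC2A3 (3 to 24 h), PGK1 (24 h), HK2 (6 and 24 h), and PFKFB3 (12 and 24 h) with mercury and the fall of LDHA at 24 h kept their calls throughout. Metal and non-treated libraries of the same time and replicate number were compared by their deviations from the group mean. These correlated at a median of -0.00799 over 45 pairs, from -0.278 to 0.0837. Pairing across times or between metals was not examined, so a link between same-numbered libraries is not excluded. With the number as a replicate block, 20 calls against non-treated cells were made, as without it, and arsenic against mercury at 1.5 h gave 1 call (ENO1 lost) in place of 2. DESeq2 gave 1 call with arsenic (ENO1) and 1 with mercury (SLC2A3) at 1.5 h where edgeR gave 0. It gave 2 in place of 1 for arsenic against mercury at 3 h, cadmium against mercury at 6 h, arsenic against cadmium at 12 h, and non-treated cells at 6 h. PFKFB3 in non-treated cells at 12 h was called by DESeq2 (adjusted p = 0.036) and with the stricter filter (adjusted p = 0.042). Without a filter, 1 gene was called with arsenic at 1.5 h and 1 in non-treated cells at 24 h (ENO1 in both), and 0 in the arsenic change at 24 h against 12 h. The stricter filter gave 2 calls for cadmium against mercury at 6 h and 2 for arsenic against cadmium at 24 h. With only the libraries compared, 1 gene was called with cadmium and 1 with mercury at 1.5 h, 1 with cadmium at 6 h, 1 for arsenic and 2 for cadmium against mercury at 1.5 h, 0 for either against mercury at 6 h, 2 and 1 in non-treated cells at 6 and 24 h, and 0 in the arsenic change at 24 h against 12 h. An LFC beyond 1 left 0 calls with mercury at 3 and 12 h, cadmium at 6 and 12 h, and arsenic at 24 h, and 1 with mercury at 24 h.

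With each library left out in turn, the number of calls against non-treated cells ranged from 0 to 1 with arsenic at 1.5 h (1 without arsenic replicate 3), mercury at 1.5 h (1 without mercury replicate 1), and cadmium at 24 h (1 without cadmium replicate 3). It ranged from 1 to 2 with cadmium at 6 h and from 1 to 2 with cadmium at 12 h (1 without non-treated replicate 2), where 3 were called with all libraries. For arsenic against mercury it ranged from 0 to 3 at 1.5 h (0 without arsenic replicate 1, 1 without arsenic replicate 2 or any mercury library), 1 to 2 at 3 h (2 without mercury replicate 1), 0 to 2 at 6 h (2 without mercury replicate 3, 0 without any other), and 1 to 3 at 12 h (1 without arsenic replicate 1 or mercury replicate 3). For cadmium against mercury it ranged from 0 to 2 at 3 h (0 without replicate 2 of either, 2 without cadmium replicate 3) and 0 to 2 at 6 h (2 without mercury replicate 3, 0 without any other). For arsenic against cadmium it ranged from 0 to 1 at 6 h (0 without arsenic replicate 3), 0 to 2 at 12 h (0 without arsenic replicate 1 or 3 or cadmium replicate 2, 2 without arsenic replicate 2), and 1 to 2 at 24 h (2 without cadmium replicate 2). In non-treated cells it ranged from 0 to 1 at 6 h (0 without replicate 1 or 3 of either time), 0 to 2 at 12 h (0 without 12 h replicate 1, 1 without replicate 1 or 3 of 1.5 h or replicate 3 of 12 h), and 0 to 2 at 24 h (1 without 1.5 h replicate 2, 2 without 24 h replicate 3). The arsenic change at 24 h against 12 h ranged from 0 to 1, with 0 in 7 of the 12 cases. The causes of these shifts were not tested. In the counts simulated for mercury at 24 h, 36 of 100 genes with an LFC of 0.5 were called. That simulation changed 100 genes at each LFC, whereas 1712 genes were called higher and 1721 lower in the real comparison. The Benjamini-Hochberg adjustment depends on how many genes change, so this share does not carry over to the genes described here. A missed threshold alone still does not show that a gene was unaffected.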
